A study of Mus musculus with 3 samples.

Results

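The genes described here are 8 Kruppel-like factor genes (Klf2, Klf3, Klf4, Klf6, Klf7, Klf9, Klf10 and Klf13) and Nos3, the gene of endothelial nitric oxide synthase. They were taken by name, with every probe set that the platform annotation gives to one of them, which made 31 of the 34958 probe sets with 1 gene and 9 of the 18194 genes measured. The samples are 3 cultures of immortalized lymphatic endothelial cells (imLECs) from mouse skin, sorted by flow cytometry, with 1 culture and 1 array each at passages 13, 14 and 18. All 3 came from H-2Kb-tsA58 mice (ImmortoMice), in which the H-2Kb promoter, which interferon switches on, drives a heat-labile SV40 large T antigen, so no culture lacks the transgene. Cells were expanded in coated dishes at 33 °C with interferon-gamma at 1 unit per ml, then kept at 37 °C without it for 3 days so that the T antigen would be lost. The labels' protocols name no flow or shear step, and they name the cultures as separate but not the animals behind them.

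Kruppel-like factors are zinc finger transcription factors that bind GC-rich and CACCC-containing DNA. In endothelium, shear stress acts through the kinases MEK5 and ERK5 on MEF2 factors, which switch on Klf2 and Klf4, and these in turn drive Nos3 and the anticoagulant receptor gene Thbd. In lymphatic vessels the same 2 factors respond to flow, which also shapes the valves.

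Of the 9 genes, 8 were detected, against 49.6% of all genes. Detected means that the gene's brightest probe set (highest mean log2 intensity) lay above a floor on all 3 arrays. The floor was the 95th percentile of 46 genes restricted to other tissues and came to 46.1, 49.1 and 51.6 intensity units at passages 13, 14 and 18. Every Klf gene of the set passed, whereas Nos3 cleared the floor in the cultures of passages 13 and 14 but not of passage 18. Of the 31 probe sets, 22 cleared it on every array (45.0% of all probe sets with 1 gene), 2 on some and 7 on none. Levels of different genes are not ranked, because probe sets differ in how strongly they bind.

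The regions upstream of the transcription start are shown for Klf2 and for Klf4, Klf3 and Klf9. By the brightest probe sets, Klf2 was highest in the culture in which the other 3 were lowest. Klf6 was lowest there too and is not shown. The choice followed these values, and a part of the sequences in them was not tested. The regions shown are the 250 bases before the RefSeq start in assembly GRCm38.p6, written 5′ to 3′ on the gene's strand. Capitals mark matches to the MEF2 consensus and to the GC box GGGCGG, searched on both strands.
Klf2, chr8:72318812-72319061, plus strand: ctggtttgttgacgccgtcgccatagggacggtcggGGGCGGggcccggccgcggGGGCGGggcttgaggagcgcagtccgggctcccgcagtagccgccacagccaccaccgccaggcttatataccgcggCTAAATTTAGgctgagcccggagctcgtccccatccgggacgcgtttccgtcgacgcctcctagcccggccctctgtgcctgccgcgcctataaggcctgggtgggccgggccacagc
Klf4, chr4:55532476-55532725, minus strand: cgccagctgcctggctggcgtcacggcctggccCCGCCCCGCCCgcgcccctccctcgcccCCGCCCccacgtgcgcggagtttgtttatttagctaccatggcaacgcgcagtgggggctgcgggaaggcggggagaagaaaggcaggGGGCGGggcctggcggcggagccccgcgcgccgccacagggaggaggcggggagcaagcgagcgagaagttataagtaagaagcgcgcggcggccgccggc
Klf3, chr5:64803271-64803520, plus strand: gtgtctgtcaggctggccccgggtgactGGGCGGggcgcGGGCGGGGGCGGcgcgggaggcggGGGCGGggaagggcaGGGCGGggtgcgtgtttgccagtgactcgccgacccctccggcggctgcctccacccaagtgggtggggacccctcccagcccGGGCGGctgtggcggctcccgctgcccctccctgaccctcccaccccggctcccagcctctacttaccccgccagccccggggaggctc
Klf9, chr19:23140976-23141225, plus strand: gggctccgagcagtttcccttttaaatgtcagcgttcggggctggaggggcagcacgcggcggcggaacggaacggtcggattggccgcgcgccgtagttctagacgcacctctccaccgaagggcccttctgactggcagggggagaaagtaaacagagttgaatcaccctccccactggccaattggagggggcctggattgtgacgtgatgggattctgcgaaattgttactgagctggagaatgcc

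The MEF2 consensus was found in the Klf2 window alone among the 7 members with a sequence (Klf2, Klf3, Klf4, Klf6, Klf7, Klf9 and Klf13), as CTAAATTTAG starting at position -118 from the start site. Of all 32851 windows of this length, 2.92% held it. The GC box was present in 6 of the 7 windows, with 2 matches in Klf2, 4 in Klf4 and 6 in Klf3 and none in Klf9. In Klf4, 2 neighbouring matches overlap by 1 base. Of all windows, 32.7% held the GC box. The core CACCC was present in 5 of 7 windows, against 52.0% of all, with 5 matches in Klf3, 1 each in Klf2 and Klf9 and none in Klf4. No member window held TATAAA, which 12.4% of all windows did. The 7 windows were between 59.2% and 78.4% G and C, with a median of 52.4% over all windows. A match of letters is not a bound site, and a missing match says nothing of the factor.

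Klf2 was read by 1 probe set (1448890_at), at 139.8 intensity units at passage 13, 183.4 at passage 14 and 137.7 at passage 18. The passage 13 and 18 cultures were alike and passage 14 was 1.31-fold above the first and 1.33-fold above the second. On the log2 scale its mean was 7.25 ± 0.23 (SD, n = 3), a spread at the 48.5th percentile of detected genes.

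Klf4, the other flow-induced factor and one linked to exit from the cell cycle, ran the other way. Its brightest probe set (1417394_at) read 1012 at passage 13, 532.9 at passage 14 and 1123 at passage 18. Its second (1417395_at) read 451.6, 262.1 and 575.2. Both were lowest at passage 14 and highest at passage 18, although they share a source sequence and an RNA sample and do not replicate each other. The passage 18 culture was 2.11-fold above passage 14 by the brightest probe set and 2.19-fold by the other. Klf4 was the only detected member past 2-fold between any pair of cultures, in the pair 14 and 18, where 6.47% of detected genes were at least 2-fold higher at passage 18 and 5.10% at least 2-fold lower. Between passages 13 and 14, 0 of the 8 detected members passed 2-fold (1.93% of detected genes higher and 3.01% lower at passage 14), and between 13 and 18 none did (2.15% higher and 1.98% lower at passage 18). Klf4 had a mean of 9.72 ± 0.58 (SD, n = 3) in log2 intensity, a spread at the 89.4th percentile of detected genes.

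Nos3, whose product makes the vasodilator nitric oxide, had the widest spread of the 9. Its single probe set (1422622_at) read 65.8 at passage 13, 159.6 at passage 14 and 23.1 at passage 18. The passage 18 value lies under the floor of 51.6 and sets only an upper limit, so the passage 14 culture was at least 3.09-fold and the passage 13 culture at least 1.28-fold above it. Between the 2 cultures with a measured level, passage 14 was 2.42-fold above passage 13. With the passage 18 value set to the floor, the log2 mean was 6.35 ± 0.86 (SD, n = 3), and since the true value may lie lower, this SD is a lower limit. With that value as measured, they were 5.96 ± 1.40 (SD, n = 3). The order was passage 18, then 13, then 14, as for 25.4% of all detected genes. Klf2 had this order too, but its passage 13 and 18 cultures were alike (139.8 and 137.7).

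**Figure D1:**
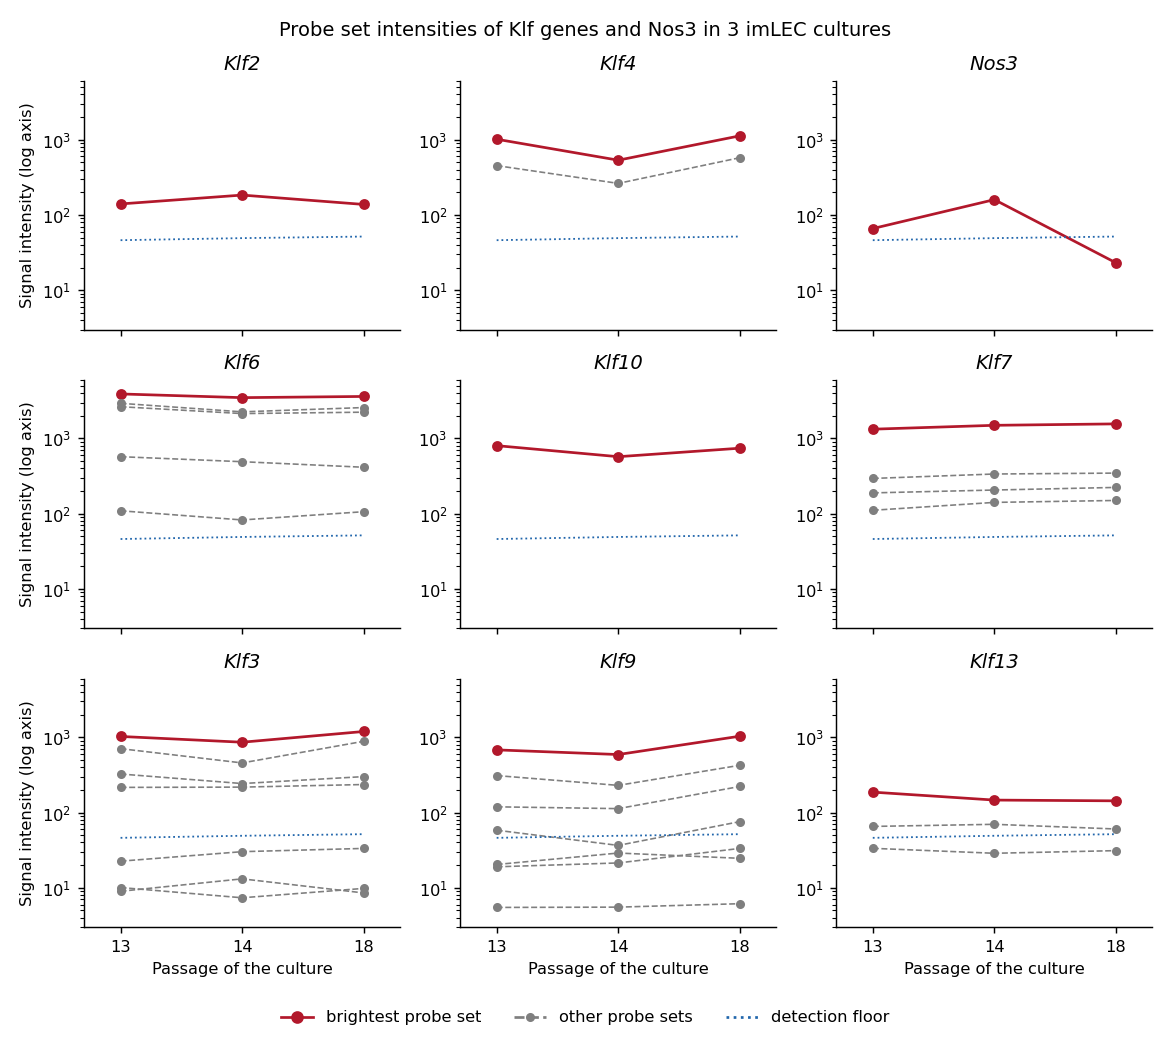
Signal intensity (log axis) of every probe set of the 9 genes in the cultures of passages 13, 14 and 18, 1 array each; red lines join the brightest probe set, grey dashed lines the others, and the blue dotted line is the detection floor. Nos3 reads 159.6 at passage 14 and 23.1 at passage 18, below the floor, whereas Klf4 is lowest at passage 14.

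Klf6 and Klf10 are both induced early by injury signals and transforming growth factor beta. Klf6 was read by 5 probe sets, all above the floor. The brightest (1418280_at) read 3900, 3482 and 3612 at passages 13, 14 and 18. Its log2 mean of 11.84 ± 0.08 (SD, n = 3) had the narrowest spread of the 9 genes, at the 10.6th percentile of detected genes. All 5 probe sets were highest at passage 13, as were 25.3% of all probe sets above the floor. In 4 of them passage 14 was lowest, and in the other (1427742_a_at, with 572.2, 490.8 and 414.2) passage 18 was. Klf10 was read by 1 probe set (1416029_at), at 802.2, 572.1 and 741.9, so passage 13 was 1.40-fold above passage 14.

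Klf7, known mainly for its role in neurons, was the only member whose signal was higher in each later culture. It read 1327 at passage 13, 1494 at passage 14 and 1561 at passage 18, which is 1.18-fold between the first and the last. The other 3 probe sets of Klf7 gave the same order, with folds of 1.18, 1.18 and 1.35. All 4 derive from a single source sequence. The order 13, 14, 18 from low to high held for 12.5% of detected genes.

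Klf3, Klf9 and Klf13 are known chiefly as repressors, Klf3 through the corepressor CtBP and Klf9 and Klf13 through Sin3. The brightest Klf3 probe set (1421604_a_at) read 1025, 859.2 and 1193 at passages 13, 14 and 18, and the next (1454666_at) 705.5, 455.9 and 883.9. Passage 18 was 1.39-fold above passage 14 by the first and 1.94-fold by the second. The remaining 2 above the floor placed the cultures in other orders, 1431630_a_at with 325.0, 242.7 and 300.1, and 1429360_at with 215.8, 217.6 and 235.6. The last 3 of the 7 were below the floor on every array.

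Klf9, a gene that glucocorticoid and thyroid hormone induce, was highest at passage 18. Its brightest probe set (1456341_a_at) read 679.7 at passage 13, 589.6 at passage 14 and 1033 at passage 18. The next, 1428289_at, read 309.7, 229.5 and 424.4, and 1428288_at read 119.1, 112.7 and 222.0. These 3 probe sets, the ones above the floor throughout, gave one order, shared with 24.9% of all probe sets above it, and passage 18 lay 1.75-fold, 1.85-fold and 1.97-fold above passage 14. Another, 1436763_a_at, read 58.2, 36.6 and 75.7 and was under the floor at passage 14, and the other 3 were below it on all arrays. The log2 mean of the brightest was 9.54 ± 0.42 (SD, n = 3). Klf13, a factor also known from T cells, read 186.7, 146.4 and 143.0 by its brightest probe set (1436316_at), and 65.4, 69.8 and 60.5 by 1432543_a_at. Both placed passage 18 lowest, as did 38.3% of all probe sets above the floor, and they differed on passages 13 and 14. By the brightest, Klf13 was lower in each later culture, as were 12.3% of detected genes. The remaining Klf13 probe set was below the floor.

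The passage 14 culture was the lowest for 5 of the 8 Klf genes (Klf3, Klf4, Klf6, Klf9 and Klf10), against 39.0% of detected genes, and for 13 of the 22 probe sets above the floor, against 37.7% of all such probe sets. The order 14, 13, 18 from low to high, seen in 25.8% of detected genes, was that of Klf3, Klf4 and Klf9. Klf2 alone of the 8 was highest at passage 14, as were 36.2% of detected genes. Klf3, Klf4, Klf7 and Klf9, 4 of the 8, were highest at passage 18 (38.3% of detected genes). Between passages 13 and 14, 6 of the 8 genes were lower in the later culture (51.3% of detected genes), with a median log2 difference of -0.23 beside -0.01 over all detected genes. Between passages 14 and 18, 6 of 8 were higher in the later culture (51.1%), with a median of 0.22 beside 0.01. From passage 13 to 18, 4 genes were higher and 4 lower (48.6% and 50.9% of detected genes), with a median of 0.06. These differences share cultures and are not independent of one another.

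**Figure D2:**
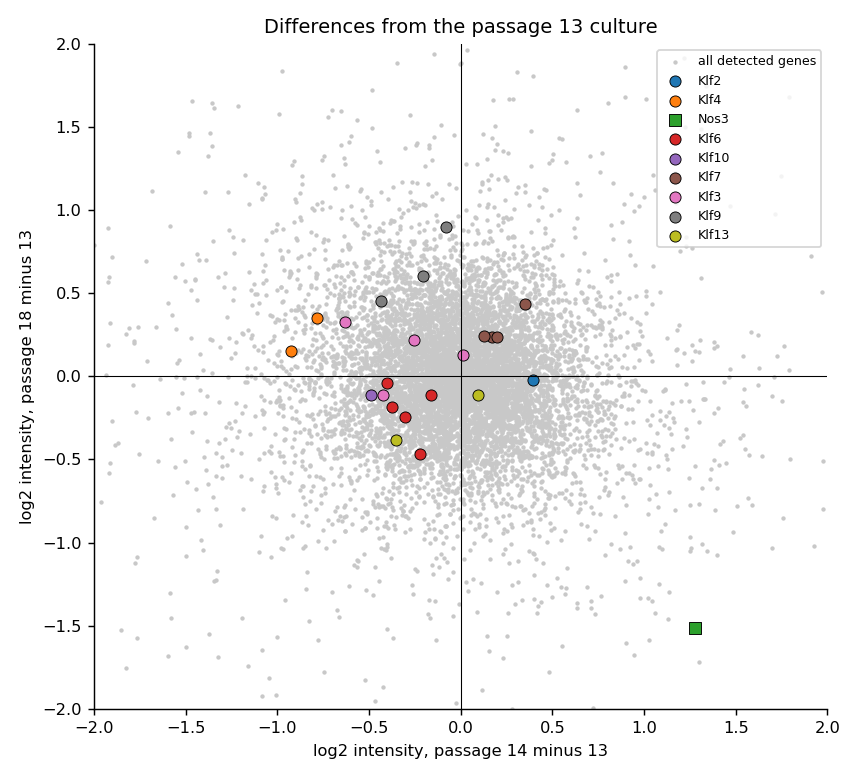
Log2 intensity difference from the passage 13 culture at passage 14 (horizontal) and passage 18 (vertical); grey points are detected genes (58 lie outside the axes), circles are the 22 Klf probe sets that cleared the floor on every array and the square is Nos3. The Klf4 and Klf9 points and 2 of the 4 Klf3 points lie to the left of 0 and above it, and Nos3 lies at lower right with a passage 18 value below the floor.

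None of these genes passed a test of trend with passage number. The fit was a line of log2 intensity on passage in limma across the 9625 genes with a mean above the mean floor, and it called 0 genes at an adjusted p under 0.05 (0.00%), with 339 at an unadjusted p under 0.05 (3.52%) and a smallest adjusted p of 0.890. Of the 9 members, all tested, 0 had an unadjusted p under 0.05. Nos3 had a slope of -0.42 ± 0.18 log2 units per passage (SE moderated by limma across genes, limma adjusted p = 0.890) with its passage 18 value as measured. With that value at the floor the slope was -0.17. Klf9 had a slope of 0.14 ± 0.07 (limma adjusted p = 0.890). Both turn without the passage 18 culture, to 1.28 for Nos3 and -0.21 for Klf9. The other slopes lay between -0.06 (Klf13) and 0.10 (Klf4), with limma adjusted p-values up to 0.983. With every probe set as its own row, 0 of 16994 were called (669 at an unadjusted p under 0.05), and of 24 member probe sets tested only 1428288_at of Klf9 did so (limma adjusted p = 0.895). Each gene has 1 residual degree of freedom, and the lack of calls does not show that levels were equal. P-values here rest on the spread of these 3 cultures around the fitted line, moderated by limma across genes. They say nothing of other cultures.

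**Figure D3:**
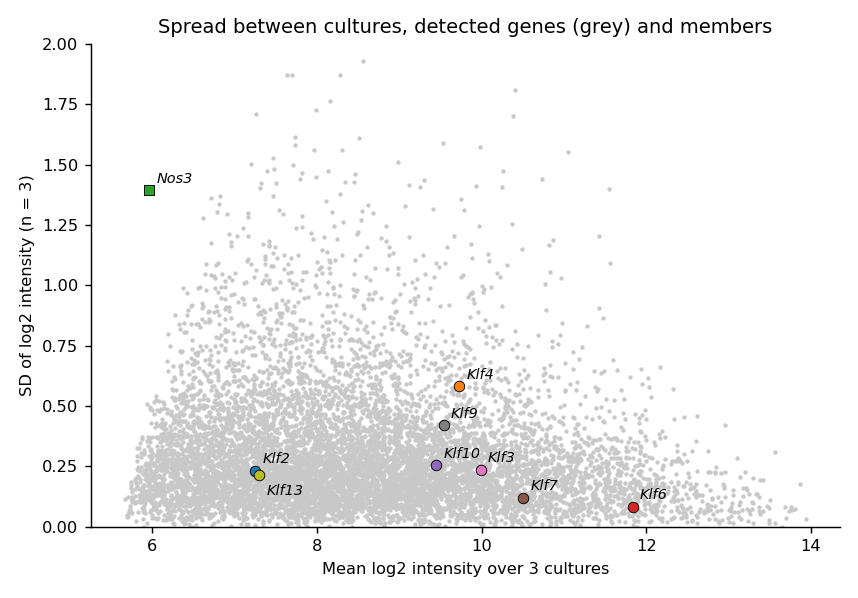
Mean log2 intensity over the 3 cultures (horizontal) against its SD (vertical, n = 3) for detected genes (grey; 7 lie above the axis) and the brightest probe set of each member. Nos3 has an SD of 1.40, which rests on a passage 18 value below the floor, Klf4 of 0.58 and Klf6 of 0.08, against a median of 0.24 over detected genes.

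The arrays and cultures also differed in ways that run alongside these values. The ratio of 3' to 5' control probe sets of Gapdh was 8.59, 7.10 and 19.4 at passages 13, 14 and 18, and that of Actb was 1.18, 1.20 and 1.42. Endothelial markers were present in all cultures, with 10 of 10 pan-endothelial genes detected, and all 10 were lower at passage 18 than at 14 (48.5% of all detected genes), their summed intensity being 19278, 18454 and 13054. Of 9 lymphatic markers measured, 5 were detected (49.6% of all genes), among them Pdpn (4615, 1933 and 3715), Flt4 (2039, 1869 and 919.7) and Lyve1 (1375, 2929 and 162.9). Prox1, which specifies lymphatic identity, was above the floor at passage 13 alone by its brightest probe set (73.4, 34.5 and 48.5). Nos3 lay below the floor in the culture with the lowest summed endothelial marker signal and the highest Gapdh and Actb ratios, and their part in its value was not tested. In RNA from whole cultures, fewer cells of a type and less RNA per cell cannot be told apart.

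Mural and fibroblast markers were lowest in sum at passage 14 and highest at passage 18, the order of Klf3, Klf4 and Klf9, though the single genes did not all share it. Of 7 mural markers 3 were detected, namely Acta2 (1467, 308.0 and 5289), Pdgfrb (77.9, 66.0 and 206.3) and Tagln (4535, 618.6 and 1756), and 2 of these 3 had that order (25.8% of detected genes). Myh11, Cspg4, Des and Rgs5 were under the floor on all arrays, and the sums over the 7 were 6175, 1080 and 7332. Of 7 fibroblast markers 3 were detected, namely Col1a1 (262.9, 92.8 and 1228), Col3a1 (198.7, 203.2 and 775.9) and Thy1 (2496, 1414 and 1723), and 1 of these 3 had that order. Col1a2 was under the floor at passage 14 alone (100.7, 15.9 and 318.4), Pdgfra, Dcn and Lum were under it on all arrays, and the sums were 3105, 1771 and 4126. These sums rest on a few bright probe sets, and 49.6% of all genes were detected. Of 7 leukocyte markers 2 were detected, with sums of 500.0, 464.4 and 215.5 and with Ptprc below the floor. Of 6 keratinocyte markers 1 was detected, with sums between 182.7 and 241.6. Of 8 cell cycle genes chosen after these values were seen, 7 were measured and 6 detected. All 6 had more signal in the passage 14 than in the passage 13 culture, whereas 51.3% of all detected genes had less. Their median log2 difference was 1.23, with folds between 1.01 and 3.39. The part of these cells and states in the Klf and Nos3 values was not tested.

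Most genes listed for the pathway that leads from flow to Klf2 and Klf4 were detected, which does not show that the pathway was active. Of 13 flow sensor genes measured, 10 were detected, against 49.6% of all genes. Among them were the ion channel genes Piezo1 (774.7, 507.3 and 897.5 at passages 13, 14 and 18) and Piezo2 (49.8, 65.0 and 119.4). The junctional sensor Pecam1 read 1728, 1963 and 1005, and the receptor gene Plxnd1 was under the floor at passage 18. Piezo1 thus had the order of Klf4, and Pecam1 that of Nos3. Of 12 genes of the MEK5, ERK5 and MEF2 route, 9 were detected. The upstream kinase Map3k2 read 271.1, 216.7 and 391.3, Map3k3 read 647.9, 744.8 and 573.7, and Map2k5, which encodes MEK5, read 82.3, 112.3 and 75.7. Mapk7, which encodes ERK5, lay near the floor with 53.6, 51.2 and 49.2, and was under it at passage 18. Mef2c, singled out after its values were seen, read 283.1, 628.4 and 253.5 and was highest at passage 14, as Klf2 and Nos3 were. The other Mef2 genes did not share this. Mef2a read 789.9, 682.2 and 882.0 and was lowest at passage 14. Mef2d read 152.6, 143.7 and 130.9, lower in each later culture, and Mef2b was below the floor on all arrays.

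The CCM proteins restrain the same kinases. Of 8 genes of that complex and its partners 7 were detected, against 49.6% of all genes, and Heg1 was below the floor. Krit1 read 245.9, 216.8 and 418.4, Ccm2 358.1, 280.5 and 259.5 and Pdcd10 742.0, 714.3 and 757.0. Between passages 14 and 18 Pdcd10 differed by 1.06-fold and Krit1 by 1.93-fold. All 8 cofactor genes of the Klf proteins were detected (49.6% of all genes). Their median log2 difference from passage 14 to 18 was 0.25, beside 0.01 over all detected genes. The corepressors of Klf3, Ctbp1 and Ctbp2, read 681.6, 908.1 and 817.9, and 637.5, 663.7 and 768.4. Sin3a, a partner of Klf9 and Klf13, read 390.5, 482.2 and 324.4.

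Of 15 genes listed as raised by flow, 10 were detected, against 49.6% of all genes. A place in this list does not show that Klf2 or Klf4 acts on a gene. Thbd, a thrombin receptor and a textbook Klf2 target, read 2099, 1988 and 1771 and so differed by 1.12-fold between passages 14 and 18, where Nos3 differed by at least 3.09-fold. The antioxidant genes Nqo1 and Hmox1 read 2322, 1877 and 2555, and 2648, 2156 and 1477. Of the 10 detected, 9 had less signal in the passage 14 than in the passage 13 culture, against 51.3% of all detected genes, and the median log2 difference was -0.30. Cyp1a1 was under the floor at passages 13 and 18. Of 11 measured genes that flow lowers, 10 were detected and Il6 was below the floor. The vasoconstrictor gene Edn1 read 1518, 1280 and 682.3, and Angpt2, which encodes a ligand of Tek, read 436.2, 1163 and 301.1. Ece1, which processes endothelin, read 1343, 918.9 and 1245. In this list 6 of 10 had less signal at passage 14 than at 13 (median log2 difference -0.32), near the 51.3% of all detected genes.

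For nitric oxide synthesis, 11 of 16 measured genes were detected (49.6% of all genes), and the neuronal isoform gene Nos1 was below the floor on all arrays. Cav1, whose protein holds the synthase inactive in caveolae, read 6502, 6978 and 6444. Hsp90aa1, a chaperone that activates it, read 2620, 3423 and 2478, and Akt1, a kinase that phosphorylates it, read 307.4, 338.5 and 164.7. All 3, the first detected genes of the list, were highest at passage 14 and lowest at passage 18. This is the order of Nos3 and of 25.4% of detected genes. The folds between those 2 cultures were 1.08, 1.38 and 2.06. Gch1, which makes the cofactor tetrahydrobiopterin and was singled out after its values were seen, read 651.7, 869.1 and 242.6, or 3.58-fold between the same 2. Of the 11 detected genes 9 had less signal in the passage 18 than in the passage 14 culture, and the median log2 difference was -0.25, beside 48.5% of all detected genes. Of 8 genes of the response to nitric oxide 2 were detected, against 49.6% of all genes. They were Prkg1 (186.9, 67.4 and 268.1) and Vasp (593.0, 536.6 and 314.0), and the receptor subunit gene Gucy1a1 was below the floor. In none of these lists did a gene pass the limma trend over all genes tested, where 3.52% had an unadjusted p under 0.05. Such genes numbered 3 of 11 tested for flow sensors, 1 of 10 for genes listed as raised by flow and 1 of 10 for genes lowered by flow. They were 1 of 11 for nitric oxide synthesis and 1 of 3 for nitric oxide response. For the MEK5, ERK5 and MEF2 route they were 0 of 11, for the CCM complex 0 of 7 and for the Klf cofactors 0 of 8.

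**Figure D4:**
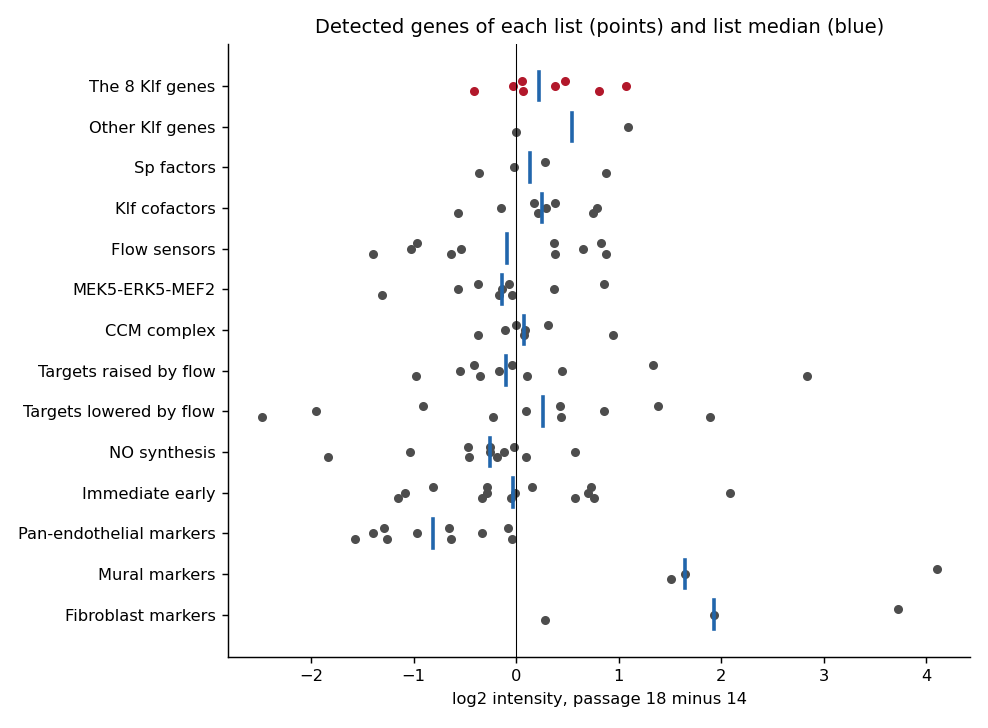
Log2 intensity difference of the passage 18 culture from the passage 14 culture for each detected gene of the lists (points) and the list median (blue bar); the 8 Klf genes are red. The Klf median is 0.22 and that of the nitric oxide synthesis genes is -0.25, while fibroblast and mural markers lie at medians of 1.93 and 1.64.

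Within the wider family, 10 of 16 measured Klf genes were detected and 6 stayed under the floor throughout. The share detected over all genes was 49.6%, for this list and those that follow. Outside the set the detected ones were Klf11 (104.9, 65.6 and 139.3), which has the order of Klf4, and Klf16 (109.4, 71.8 and 71.8). Of 7 Sp factor genes, the nearest relatives, 4 were detected. Sp1 read 1268, 1448 and 1760, Sp3 402.7, 389.8 and 384.8 and Sp4 98.2, 68.9 and 126.6, with Sp6 below the floor. Of 10 genes of the transforming growth factor beta pathway, which induces Klf6 and Klf10, all 10 were detected, with Smad2 at 1446, 1265 and 1270, Smad3 at 703.0, 474.5 and 621.0 and Smad4 at 1065, 1105 and 1311. Smad3 had the order of Klf6 and Klf10, lowest at passage 14 and highest at passage 13. Of 7 glucocorticoid genes set beside Klf9, 5 were detected. The receptor gene Nr3c1 read 1050, 792.6 and 1419 and its target Tsc22d3 80.9, 69.6 and 133.6, the order of Klf9, while Fkbp5 read 153.6, 231.8 and 129.7.

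Genes most like Klf2, Klf4 and Nos3 over the 3 arrays were those at the smallest distance between log2 values centred on each gene's mean. For Klf2 they were Kars, Rps24 and Alkbh4, and 1677 of 9014 detected genes lay within 0.25 log2 units. For Klf4 they were Entpd7, Hacd1 and LTO1, with 245 genes within that distance. For Nos3 they were Oasl2 (443.7, 970.3 and 161.2), Slco4a1 (557.2, 1371 and 169.4) and Rtp4 (772.6, 1578 and 257.4), with 5 genes within it. These counts depend on how widely a gene's values differ as well as on their order, and do not show how common a course was. The order of Nos3 was that of 25.4% of detected genes, and Klf2 shared it only by 139.8 against 137.7 at passages 13 and 18. With 3 arrays, closeness of this kind has little weight, and the Nos3 course rests on a value under the floor.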

How the data were processed

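Each value of the deposited table is a linear signal intensity of 1 probe set in 1 culture. MAS5 is named per the submitters' processing notes, without role or version; the other steps that the authors took are not stated in the labels. Array medians of the deposited intensities were 25.7, 26.0 and 26.3, so values were not normalized again. Symbols came from the platform annotation and were updated through Entrez identifiers to RefSeq GRCm38.p6 (34754 of 34958 probe sets matched); 932 probe sets with several genes were left unnamed. Precision is limited by having 3 arrays. Trends came from lmFit and eBayes (intensity trend, Benjamini-Hochberg adjustment) of limma 3.58.1, run under R 4.3.3. The fit was checked in 2 ways on simulated data with slopes of 0.5 and 1 log2 units per passage. With the median SD for every gene it called the changed genes and 7 unchanged ones. With each gene's own observed SD, a spread tried after the first outcome was seen, it called none. The simulated slopes were steeper than that of any member, so the check does not cover slopes of their size. Pairs of cultures have no replicate and no test. Of 55 genes listed for the floor, 46 were measured and 3 of these passed it. Named genes are all members, the first 3 detected and first undetected gene of each pathway list, all mural and fibroblast markers, the first 3 detected lymphatic markers, Prox1, Ptprc, the 3 genes most like Klf2, Klf4 and Nos3, and genes said to be singled out. Mef2a, Mef2b and Mef2d are named beside Mef2c. The members and lists were chosen with earlier results of these data known. Alternatives covered probe set choice, scaling, offset, floor, filter, contrast and leaving out cultures.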

Additional observations from a re-analysis of the deposited data

How the results depend on the processing

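Detection of 8 of 9 members held under both other scalings, the added offset of 16, the median of probe sets, the set without _x_at and _s_at probe sets and the floor at the 90th percentile; at the 99th percentile it was 7, without Klf13. Leaving out 1 culture gave between 8 and 9, and Nos3 joined without passage 18. No setting called a gene in the limma trend; over the alternatives the members' adjusted p-values ran from 0.616 to 0.992, the lowest with passage 18 set against the mean of the other cultures. The count past 2-fold between passages 14 and 18 became 2 with the median of probe sets, with Klf9 beside Klf4. Between 13 and 14 it became 1 (Nos3) when passage 18 was left out, an alternative chosen after seeing the data, because the call of detection then needs 2 arrays. Slopes in log2 units per passage ranged, with 1 culture left out, from -0.10 to 0.39 for Klf2, -0.93 to 0.27 for Klf4, -0.16 to 0.0132 for Klf6, -0.49 to 0.0937 for Klf10, 0.02 to 0.17 for Klf7, -0.25 to 0.12 for Klf3, -0.21 to 0.20 for Klf9, -0.35 to -0.01 for Klf13 and -0.70 to 1.28 for Nos3. By the brightest probe sets, only Klf7 and Klf13 kept their direction in all of these. The directions of Klf2, Klf3, Klf4, Klf9, Klf10 and Nos3 turned without the passage 18 culture, to 0.39, -0.25, -0.93, -0.21, -0.49 and 1.28. Other probe sets differed, as Klf13 1432543_a_at was higher at passage 14 than at 13 (69.8 and 65.4). Klf6 1427742_a_at was lower in each later culture (572.2, 490.8 and 414.2). One Klf6 probe set, 1459718_x_at, had a slope of 0.0203 against -0.01 for the brightest. Levels moved by more than the SD between cultures in 5 of 72 settings, all with the median of probe sets. Signals near the floor, as for Nos3 and Mapk7, limit what can be said of them. No paired analysis was possible because there is 1 group.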

Other observations

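Immediate early genes, several of which respond to the same growth and stress signals as Klf2, Klf4, Klf6 and Klf10, were detected in 14 of 18 cases. The share detected over all genes was 49.6%. The AP-1 gene Fos read 179.4, 68.5 and 291.4 at passages 13, 14 and 18, Fosl1 read 375.6, 414.6 and 339.8 and Fosl2 read 1136, 1674 and 954.3, with Fosb below the floor. Fos had the order of Klf4, and Fosl1 and Fosl2 were highest at passage 14, as Klf2 was. From passage 14 to 18 the list's median log2 difference was -0.03, with 6 genes higher and 8 lower, beside a median of 0.01 over all detected genes.

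Of 9 genes that mark flow and valve formation in lymphatic endothelium, 6 were detected, against 49.6% of all genes. The valve transcription factor Foxc2 read 782.9, 266.8 and 954.8, Gata2, which acts upstream of it, read 339.8, 293.5 and 393.3, and the connexin gene Gja1 read 2625, 3197 and 3915. All 6 were higher at passage 18 than at 14, against 51.1% of detected genes, with a median log2 difference of 0.63. Foxc2 and Gata2 shared the order of Klf4. No gene of either list passed the limma trend over all genes tested, and none had an unadjusted p under 0.05.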
